A study of Mus musculus with 8 samples.

Results

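Interferon gamma (IFNγ) was added to mouse bone marrow-derived macrophages that were taking up antibody-coated red cells, and its effect on transcript levels was measured across all genes. The comparison sets the 2 arrays of macrophages given both stimuli against the 2 arrays of macrophages given the coated red cells alone, so it uses 4 of the study's 8 arrays, picked by their sample titles. All macrophages were grown from marrow of C57BL/6 mice in medium conditioned by L929 cells, a source of the growth factor M-CSF. Both groups received sheep red blood cells opsonised with mouse IgG2a (10 red cells per macrophage) for 6 h, and 1 of them also received recombinant IFNγ at 10 ng/ml. The other 4 arrays, 2 of unstimulated macrophages and 2 of macrophages given only IFNγ at the same dose for 6 h, served to ask whether the response to IFNγ differed when no particle was present. Whether replicate arrays stand for different mice, different dishes or repeats of the same RNA is not in the labels, so the p-values reflect only the spread between these arrays, and that spread may be technical. In such cell populations fewer cells of a type and less RNA per cell cannot be told apart.

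IFNγ binds a receptor built from the chains Ifngr1 and Ifngr2, which signals through JAK kinases. Promoters of IFNγ-responsive genes can carry GAS elements and interferon-stimulated response elements (ISRE), and the latter are bound by interferon regulatory factors, IRF1 among them. IgG2a on a particle is bound by activating Fcγ receptors, which signal through the shared ITAM-bearing chain Fcer1g and drive phagocytosis, after which the macrophage digests the cell and breaks down its heme.

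Values are fluorescence intensities of 25697 probes, and the number of arrays limits the precision. Over all probes, log2 intensities of replicate arrays correlated at 0.9918 in both groups, and arrays of different groups at 0.9634 to 0.9641. A probe was taken as above background at an intensity over 203.5, which left 8977 features, each a gene's brightest probe or a probe without a gene name. The 7 macrophage markers on the array, such as Adgre1 and Spi1, were above background in both groups, and their summed intensity was 40146 to 42404 with opsonised cells and 40611 to 40806 with IFNγ as well; 3 of the 7 were called higher (Fcgr1 at 2.01, Mertk at 1.16 and Spi1 at 0.44 on the log2 scale) and 1 lower (Cd14 at -0.84). In the marker counts that follow, a gene is above background in a group when both arrays of that group are. None of 9 erythroid markers was so in either group, and of 11 T and NK cell markers 1 was. The erythroid markers Tfr2, Slc4a1, Alas2, Gata1 and Hba-a1 were above background on no array of the 2 groups. Dendritic cell markers above background numbered 0 of 10 with opsonised cells and 1 with IFNγ as well, fibroblast markers 1 and 2 of 11, and B cell markers 2 of 7 in both groups. The summed B cell marker intensity was 2114 to 2115 with opsonised cells and 1608 to 1728 with IFNγ as well, and 1 of the 3 tested, Blnk, fell by 0.93. Of 11 neutrophil markers 5 were above background in each group. The summed intensity of the 11 was 3559 to 4170 with opsonised cells and 4884 to 4982 with IFNγ as well. Of the 5 tested neutrophil markers 2 were higher (1 without opsonised replicate 2) and 0 lower, S100a9 by 0.74 ± 0.13 and S100a8 by 0.54 ± 0.13 on the log2 scale; Mpo, Prtn3, Cxcr2, Mmp8 and Cebpe were not above background in either group, and the part of such cells in the results was not tested.

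IFNγ added to opsonised cells changed 2599 features (29% of those tested) at an adjusted p under 0.05 (limma, Benjamini-Hochberg adjustment, 2 arrays per group). Of these, 1063 were higher (11.8% of all features) and 1536 were lower (17.1%). Large changes ran mostly upward: 248 features were at least 2-fold higher (2.76%) and 103 at least 2-fold lower (1.15%). The fitted change was above 0, with no test, in 44.3% of features. At 4-fold the counts were 66 and 5, and past 16-fold there were 12 higher features and 0 lower ones. The 2 groups of arrays did not overlap for 1060 of the higher and 1535 of the lower features, against 25.8% and 35.8% of all features whose groups were separated in each direction. The share of calls that were higher was 40.9% and depended on scaling, being 50.7% (1242 higher, 1206 lower) after cyclic loess and 56.1% (1372 higher, 1072 lower) after centring on housekeeping genes. In the opsonised-only group 108 of the higher features were not above background, and with both stimuli 104 of the lower ones were not, so their folds are compressed by the background that the deposited intensities still contain.

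The largest rises included chemokine, costimulatory and GTPase genes. Cxcl9, a ligand of the T cell chemokine receptor CXCR3, read 204 and 198 on the 2 arrays with opsonised cells alone and 30374 and 29424 with IFNγ added, a log2 change of 7.22 ± 0.10 (adjusted p = 5.0e-24, limma, n = 2 per group; here and below, ± gives the fit's standard error on the log2 scale). Cxcl10, a second CXCR3 ligand, went from 409 and 499 to 21029 and 21510.2 (5.56 ± 0.11, 47.1-fold). The opsonised-only arrays lay at background for Cxcl9 and above it for Cxcl10, and both were bright on the arrays with IFNγ. Upp1, the pyrimidine salvage enzyme uridine phosphorylase, read 205 and 204 without IFNγ and 7294 and 7155 with it (5.15 ± 0.11, 35.4-fold). The costimulatory receptor gene Cd40 read 510.0 and 481 against 16440.1 and 16513 (5.06 ± 0.11), and its 4 probes ranged from 1.04 to 5.06. None of these genes had a combined-stimulus array within the range of the opsonised-only arrays, which the choice of the 20 largest rises required. The transcription factor gene Batf2 (208 and 235 against 4448 and 4764) and the cytokine feedback inhibitor gene Socs3 (282 and 241 against 5212 and 5470.5) rose by 4.38 ± 0.11 and 4.35 ± 0.11. Ccl5, a chemokine that recruits T cells and monocytes, rose from 267 and 353 to 4785 and 5321 (4.04 ± 0.13). Calhm6, a calcium homeostasis modulator family gene, rose by 4.63 ± 0.11, between Cd40 and Batf2. Cd69 (3.74 ± 0.11), an activation marker of lymphocytes, rose as well, as did Ccl8 (3.66 ± 0.12), a monocyte chemokine, and Hcar2 (3.33 ± 0.13), a receptor for nicotinic acid and hydroxybutyrate. The last of the 20 largest rises were AA467197 (3.01 ± 0.11) and Cd74 (2.99 ± 0.12). 2 further genes of nucleoside and NAD metabolism, chosen after their values were seen, rose as well: Pnp, purine nucleoside phosphorylase, by 1.71 ± 0.10 and Nampt, the rate-limiting enzyme of NAD salvage, by 1.87 ± 0.15.

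**Figure D1:**
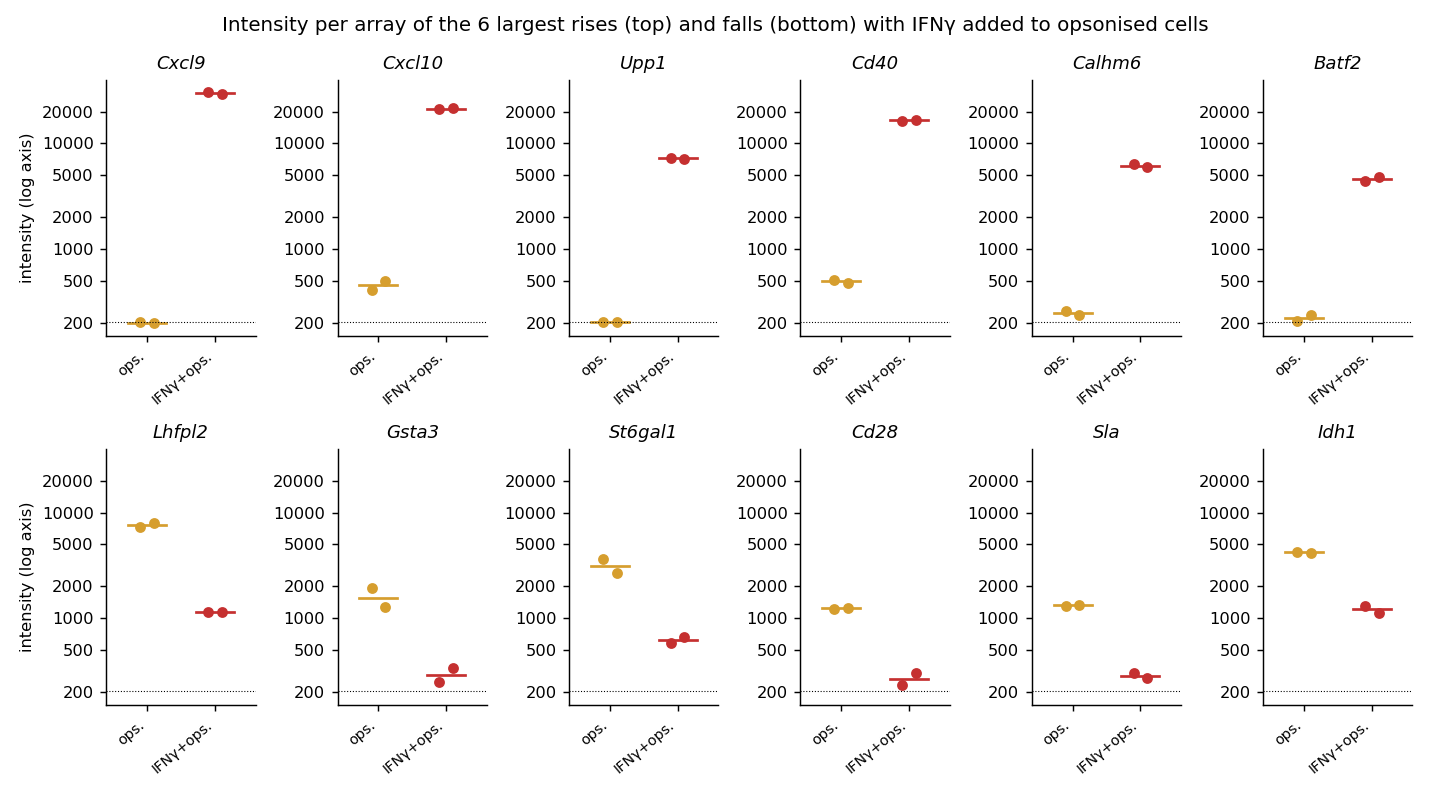
Deposited intensity (log axis) on each array with opsonised cells alone and with IFNγ added, for the genes with the largest rises and falls; each point is 1 array, short lines are group means and the dotted line is the background floor. For Cxcl9 the points move from 204 and 198 to 30374 and 29424 and for Lhfpl2 from 7303 and 7919.6 to 1134 and 1137. Only genes with no overlap between the groups were eligible.

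The upstream sequences of some of these genes carry the elements named above. Promoter windows from 250 bases before to 50 bases after the start (RefSeq, GRCm38.p6) were found for 6800 of the 8290 named genes tested. A GAS match, TTCNNNGAA on either strand, lay in 16.9% of the 178 windows of genes raised at least 2-fold, in 6.25% of the 80 of genes lowered at least 2-fold and in 7.15% of all 6800 windows. For the ISRE core, which is GAAA, 2 bases of any kind and GAAA again, the shares were 14.6%, 1.25% and 3.26%. Either motif lay in 27.5% of windows of the raised genes against 9.9% of all, and in 17% when every raised gene was counted whatever its size. The core of the NRF2 element, TGACNNNGC, was in 11.2% of raised, 16.2% of lowered and 14.5% of all windows. The NF-κB motif, which is GGGA, 1 base of any kind and TTTCC, was in 0.562% of raised windows (1 of 178) and 0.397% of all windows. An E2F motif, TTTNGCGC, was in 6.25% of lowered windows (5 of 80) and 2.68% of all windows, and CCAAT in 51.2% and 39.5%. When every lowered gene was counted whatever its size, the shares were 3.32% for E2F and 45.2% for CCAAT. All motifs were searched on both strands, GAS and ISRE matches may overlap, and a match is a description of the letters, not a bound site.

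The 250 bases before the start are shown for 5 strongly raised genes and 1 strongly lowered gene, 5′ to 3′ on the gene's strand, with all matches to GAS, the ISRE core and the NRF2 element core in capitals. Cxcl10 holds an ISRE core and, nearer the start, an NRF2 element core, and Gbp2 an ISRE core. Igtp holds an NRF2 element core and, nearer the start, a GAS followed by an ISRE core. Irf1 holds a GAS and Gsta3 an NRF2 element core. Cxcl9, the gene with the largest rise, is shown because none of these 3 motifs is in this window.
Cxcl10 (chr5:92348890-92349139, minus strand): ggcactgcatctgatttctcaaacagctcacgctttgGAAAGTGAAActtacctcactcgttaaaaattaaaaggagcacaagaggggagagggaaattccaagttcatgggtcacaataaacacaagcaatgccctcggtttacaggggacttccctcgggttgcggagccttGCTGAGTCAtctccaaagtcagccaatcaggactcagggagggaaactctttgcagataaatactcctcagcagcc
Gbp2 (chr3:142620413-142620662, plus strand): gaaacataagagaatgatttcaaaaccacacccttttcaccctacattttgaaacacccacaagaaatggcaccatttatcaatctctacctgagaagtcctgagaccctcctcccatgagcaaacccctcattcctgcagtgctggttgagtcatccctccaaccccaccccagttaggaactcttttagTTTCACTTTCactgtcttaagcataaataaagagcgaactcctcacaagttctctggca
Igtp (chr11:58199306-58199555, plus strand): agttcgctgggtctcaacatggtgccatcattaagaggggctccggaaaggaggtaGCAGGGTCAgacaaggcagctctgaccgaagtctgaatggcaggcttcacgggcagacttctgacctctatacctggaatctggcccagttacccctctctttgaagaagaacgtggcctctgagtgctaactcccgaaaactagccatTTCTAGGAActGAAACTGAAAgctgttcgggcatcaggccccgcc
Irf1 (chr11:53769764-53770013, plus strand): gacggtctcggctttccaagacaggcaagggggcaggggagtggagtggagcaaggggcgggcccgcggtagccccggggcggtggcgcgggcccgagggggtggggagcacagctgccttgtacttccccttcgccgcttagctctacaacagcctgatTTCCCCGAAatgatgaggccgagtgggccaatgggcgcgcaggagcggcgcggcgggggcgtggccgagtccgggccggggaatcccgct
Cxcl9 (chr5:92328080-92328329, minus strand): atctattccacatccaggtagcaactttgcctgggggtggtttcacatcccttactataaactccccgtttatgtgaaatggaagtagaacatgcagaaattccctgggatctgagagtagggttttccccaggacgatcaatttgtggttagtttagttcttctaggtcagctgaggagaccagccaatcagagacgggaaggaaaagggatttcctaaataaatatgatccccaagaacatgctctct
Gsta3 (chr1:21240335-21240584, plus strand): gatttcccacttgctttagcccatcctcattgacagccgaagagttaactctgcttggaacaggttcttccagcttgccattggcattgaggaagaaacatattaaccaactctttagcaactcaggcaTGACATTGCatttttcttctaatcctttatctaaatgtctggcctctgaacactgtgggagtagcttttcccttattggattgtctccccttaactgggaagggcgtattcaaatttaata

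Ifngr1 fell, and most tested regulators downstream of the receptor rose. Ifngr1, the ligand-binding chain, read 1094 and 1022 with opsonised cells alone and 682 and 698 with IFNγ (-0.62 ± 0.12, adjusted p = 2.0e-04). Ifngr2, the signalling chain, read 676 and 627 against 555 and 658 (-0.11 ± 0.12, adjusted p = 0.556), and its groups overlapped. Of 17 tested genes of the receptor pathway and its transcription factors, 14 were higher and 1 lower, with a median log2 change of 1.34 against -0.04 over all features, and 1 of the 17 passed the background filter only through arrays with IFNγ. Irf1, the interferon regulatory factor whose upstream GAS is printed above, rose from 3176 and 3480.1 to 25949 and 22776 (2.87 ± 0.10, 7.31-fold). Irf8, a macrophage-lineage interferon regulatory factor, rose from 399 and 389 to 1864 and 2151 (2.35 ± 0.14). Both rises left a clear gap between the 2 groups of arrays, in a direction in which 25.8% of all features were separated. Socs1, the inhibitor of JAK kinases that limits IFNγ signalling, was not above background with opsonised cells alone (160.3 and 176) and read 441 and 460.2 with IFNγ, at least 2.21-fold higher (adjusted p = 1.4e-09). Jak2, which docks on Ifngr2, rose by 1.07, Stat2 by 1.20 and Stat3 by 1.58 on the log2 scale. Irf9, an interferon regulatory factor gene, changed by 0.13 and did not pass the test, and Jak1 was not tested.

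The interferon-inducible GTPases, which attack membranes around intracellular microbes, gave many of the large rises. Of 15 such genes on the array 12 were tested, and 5 of these passed the filter on background only through arrays with IFNγ; 11 of 12 tested guanylate-binding protein and immunity-related GTPase genes were higher and 0 lower, with a median log2 change of 2.80. Gbp2 read 1535 and 1664 with opsonised cells alone and 29099 and 28881 with IFNγ (4.18 ± 0.10), Gbp3 643 and 595 against 9669.9 and 9466 (3.95 ± 0.10) and Igtp 637 and 724 against 10475 and 9758 (3.90 ± 0.11). The 3 probes of Gbp2 ranged from 0.71 to 4.61. Gbp5, known for promoting inflammasome assembly, was not above background without IFNγ (173 and 178) and read 2086 and 2089.7 with it, at least 10.3-fold higher. Ifi47 rose by 3.58 ± 0.12 and Irgm2 by 3.02 ± 0.11, and Iigp1 changed by 0.23 without passing the test. Gbp4, Gbp8 and Gbp9 did not pass the filter. Paralogues in this family are similar in sequence, so probes may read more than 1 member.

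Of the antiviral interferon-responsive genes 19 of 22 were higher and 0 lower, with a median of 0.94. Ifit2, which binds viral RNA, rose from 830.4 and 1090.2 to 6722 and 6401 (2.79 ± 0.12). Isg15, a ubiquitin-like modifier, rose from 809 and 1248 to 5827 and 5445 (2.49 ± 0.14), and its 2 opsonised-only arrays lay further apart than its 2 arrays with both stimuli. Oasl1, a regulator of Irf7 translation, read 196 and 242 against 825 and 825 (1.92 ± 0.13), with 3 probes from 0.45 to 1.92. Smaller rises were those of Bst2 (0.57), Mx2 (0.63) and Oas3 (0.68). Among these 22 genes, 4 passed the filter only through arrays with IFNγ and 1 only through arrays without it.

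Genes of both antigen presentation pathways were higher. In the MHC class II pathway, which presents peptides from engulfed material to CD4 T cells, 9 of 10 tested genes were higher and 0 lower (median 0.97), and 2 of them passed the filter only through arrays with IFNγ. Ciita, the master regulator of class II genes, was not above background without IFNγ (168 and 155) and read 614 and 666 with it, at least 3.14-fold higher (adjusted p = 2.6e-12). Cd74, the invariant chain that escorts class II molecules, rose from 309 and 352 to 2809.5 and 2453 (2.99 ± 0.12). The peptide-exchange chaperone gene H2-DMa rose from 697 and 740.5 to 4101 and 4306 (2.55 ± 0.11) and the class II beta chain gene H2-Ab1 from 288 and 271 to 1325 and 1234 (2.20 ± 0.12). For each of these genes both arrays with IFNγ lay above both arrays without it, as did those of 25.8% of all features. In the class I pathway, which presents cytosolic peptides to CD8 T cells, 14 of 17 were higher and 0 lower (median 1.09), and none of its tested members passed the filter only through arrays with IFNγ. The peptide transporter genes Tap1 (248 and 307 against 1283 and 1377) and Tap2 (1337 and 1113 against 4375 and 4744) rose by 2.27 ± 0.12 and 1.90 ± 0.12. Nlrc5, the class I transactivator, rose by 2.01 ± 0.12, and the immunoproteasome subunit genes Psmb8, Psmb9 and Psmb10 rose by 1.18, 1.63 and 1.49. B2m, the light chain shared by class I molecules, changed by 0.20 and did not pass the test.

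Of 13 costimulatory and checkpoint genes 8 were higher (61.5%) and 2 lower (15.4%), against 11.8% and 17.1% of all features (median 1.70). The lower count was 1 without opsonised replicate 1 and 1 without combined replicate 1. In this list 1 gene passed the filter only through arrays with IFNγ. Cd274, which encodes the T cell inhibitory ligand PD-L1, rose from 2850.4 and 2453 to 19464 and 19464 (2.88 ± 0.10). Cd86, a ligand of CD28, rose from 772 and 646 to 4427 and 4455 (2.65 ± 0.11). Vcam1, an adhesion molecule for lymphocytes, was not above background with opsonised cells alone (178 and 203) and read 586 and 651 with IFNγ, at least 3.03-fold higher. Cd28 itself, best known as a T cell receptor for CD86, ran the other way, from 1219 and 1259 to 232 and 302 (-2.22 ± 0.13). Of 15 chemokine genes 9 were higher and 5 lower (3 lower without opsonised replicate 1), and 2 passed the filter only through arrays with IFNγ. Ccl3 fell from 3204 and 2648 to 1835 and 1794 (-0.68 ± 0.11), Ccl9 from 16609.9 and 16440.1 to 9061 and 10055 (-0.79 ± 0.09) and the neutrophil attractant Cxcl2 from 951 and 1004 to 728 and 668 (-0.49 ± 0.12). Monocyte-attracting Ccl12 rose by 3.10 ± 0.12 and Ccl2 by 1.65, while Cxcl14 at 0.01 did not pass the test. Inflammatory cytokine and NF-κB feedback genes were higher in 14 of 19 cases and lower in 0 (median 0.64; 1 lower without opsonised replicate 1), and 2 passed the filter only through arrays with IFNγ. Tnf read 997 and 971 against 4861 and 4906 (2.31 ± 0.11, 4.96-fold) and Il1rn, which encodes the IL-1 receptor antagonist, 545 and 603 against 4004 and 3621 (2.73 ± 0.11, with a second probe at 0.56). Il27, a cytokine subunit that restrains T cells, was not above background on either opsonised-only array (171 and 185) and read 625 and 562 with IFNγ, at least 2.91-fold higher. Il1b at 0.23 and Tgfb1 at -0.19 did not pass the test, and 1 of the 19 genes passed the filter only through arrays without IFNγ.

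Among genes that act on the ingested particle, the tested activating Fcγ receptor genes rose. All 3 activating Fcγ receptor genes tested were higher: Fcgr4, a receptor for IgG2a and IgG2b, went from 3143 and 3008 to 23140.5 and 20386 (2.82 ± 0.10), Fcgr1, the high-affinity IgG2a receptor, from 548 and 532 to 2151 and 2184 (2.01 ± 0.11) and Fcgr3 from 4314 and 3876 to 9287 and 9633 (1.21 ± 0.10). Fcgr2b, the inhibitory receptor, read 3189 and 3034 against 2853 and 2724 (-0.16 ± 0.12, adjusted p = 0.342), a difference that missed the threshold and changed sign when probes were averaged. Fcer1g read 27004 and 29424 against 31705 and 32234 (0.18 ± 0.09, adjusted p = 0.117), close to the highest intensity on the arrays, 35989, and it passed the threshold after cyclic loess or housekeeping centring. Over the 17 Fc receptor and ITAM signalling genes 6 were higher (35.3%) and 4 lower (23.5%), against 11.8% and 17.1% of all features. The lower count was 2 without opsonised replicate 1, and Syk was not tested. Sla, an adaptor that dampens receptor signalling, fell from 1314 and 1347 to 304 and 269 (-2.22 ± 0.12, with 3 probes from -2.22 to -0.29), and Inpp5d, the SHIP1 phosphatase, by 0.73 ± 0.12. The nitric oxide synthase gene Nos2 was not above background with opsonised cells alone (183 and 186) and read 631 and 738 with IFNγ, at least 3.35-fold higher (adjusted p = 9.3e-12). In its list of arginine, itaconate and tryptophan metabolism 5 of 11 were higher and 0 lower (1 lower without opsonised replicate 1 and 1 without combined replicate 2, and 8 higher after housekeeping centring), and 5 passed the filter only through arrays with IFNγ. Of 8 NADPH oxidase and phagosome genes only Ncf1, a cytosolic oxidase subunit, was higher (0.86 ± 0.14), and Hvcn1, a proton channel that supports the oxidase, fell by 0.89 ± 0.11. In all 2 were lower, and 1 after cyclic loess, with fewer also without opsonised replicate 1 or without combined replicate 1. The shares were 12.5% higher and 25% lower, against 11.8% and 17.1% of all features. Lysosomal and proton pump genes gave 3 higher and 6 lower of 26, with a median of -0.07, 11.5% and 23.1% against 11.8% and 17.1% of all features; the lower count was 1 under either other scaling, 3 without opsonised replicate 2, 2 without combined replicate 1 and 3 without combined replicate 2. Of these 26 genes 1 passed the filter only through arrays without IFNγ. Ctsc, a protease that activates granule serine proteases, was the lysosomal gene with the largest rise (6462 and 4929.6 against 13470.5 and 12969, 1.23 ± 0.11). Toll-like receptor and inflammasome genes split, with 10 higher (47.6%) and 6 lower (28.6%) of 21, against 11.8% and 17.1% of all features. Of the 21, 2 passed the filter only through arrays with IFNγ. Nod1, a sensor of bacterial cell wall, rose by 2.42 ± 0.12 and the adaptor gene Myd88 by 1.33 ± 0.10. Casp4, the sensor of cytosolic lipopolysaccharide, rose by 2.09 ± 0.12, with 3 probes from 0.19 to 2.09. In contrast, Tlr13, a sensor of bacterial ribosomal RNA, fell from 4028 and 3564 to 998 and 1275 (-1.75 ± 0.12) and Tlr2 from 4977 and 4354 to 2316 and 2102 (-1.08 ± 0.11).

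**Figure D2:**
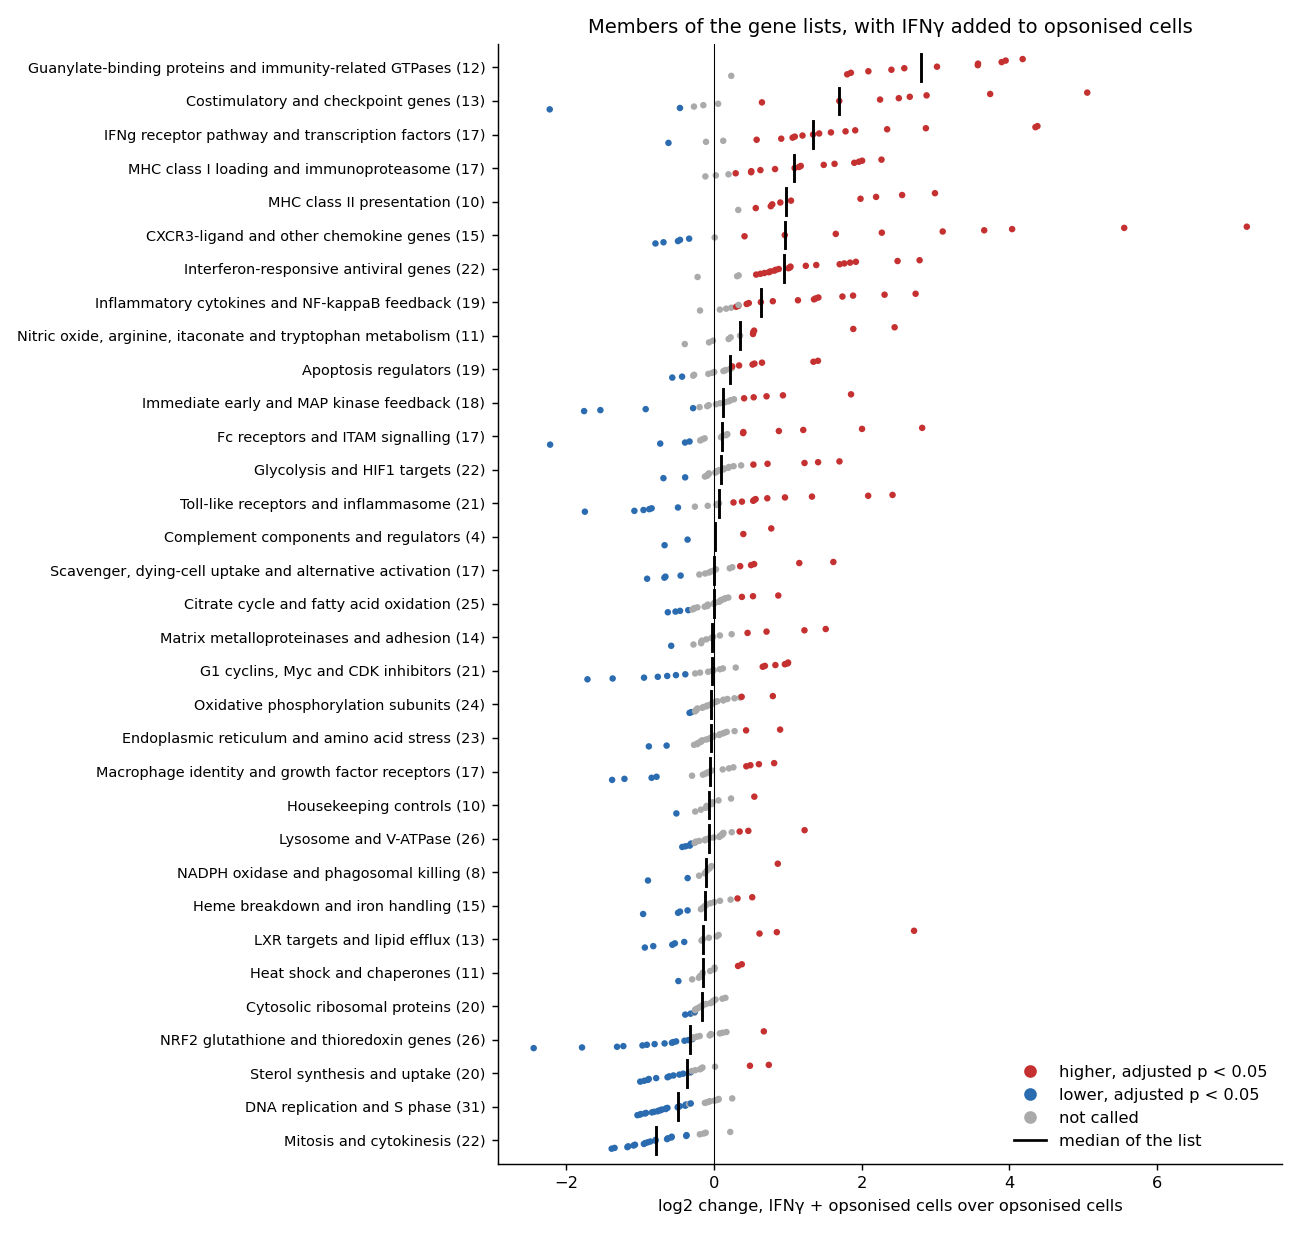
Log2 change with IFNγ added to opsonised cells (x axis) for every tested member of each gene list (rows); each point is 1 gene, coloured by whether it was called higher, called lower or not called, and the bar marks the list's median. Median changes run from 2.80 for guanylate-binding proteins and immunity-related GTPases to -0.79 for mitosis and cytokinesis.

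The largest fall was that of Lhfpl2, a tetraspan membrane protein gene, from 7303 and 7919.6 with opsonised cells alone to 1134 and 1137 with IFNγ (-2.74 ± 0.10, 6.7-fold lower, adjusted p = 3.3e-16). Gsta3, a glutathione transferase whose upstream sequence is printed above, fell from 1920.4 and 1279 to 247 and 338 (-2.44 ± 0.16, 5.43-fold lower), and St6gal1, a sialyltransferase, from 3615 and 2691 to 581 and 666 (-2.33 ± 0.13). The opsonised-only arrays of Gsta3 and St6gal1 lay further apart than those of Lhfpl2. All 3 genes had separated groups, which the choice of the 20 largest falls required. Idh1, the cytosolic NADP-dependent isocitrate dehydrogenase, fell from 4268 and 4124 to 1307 and 1132 (-1.79 ± 0.11). Dusp6, a phosphatase that inactivates ERK, fell from 2566 and 2649.5 to 798 and 744 (-1.76 ± 0.12) and Dusp4, a phosphatase of the same family, from 842 and 687 to 248 and 277 (-1.54 ± 0.13). Arap3 fell from 1404 and 1419 to 433 and 465 (-1.65 ± 0.12) and Arhgap24, which like Arap3 encodes a regulator of small GTPases, by 1.66 ± 0.12. Dnmt3l, a catalytically inactive partner of the de novo DNA methyltransferases, fell from 2894 and 2716 to 899 and 909 (-1.63 ± 0.12), and Acss2, the cytosolic acetyl-CoA synthetase, from 1296 and 1235 to 482 and 487 (-1.38 ± 0.11). The rest of the 20 largest falls were Ypel3 (-1.71), Nav1 (-1.57), Sort1 (-1.57), Lpar6 (-1.48), 2510009E07Rik (-1.46), Cerk (-1.39) and Anln (-1.39), besides Cd28, Sla and Tlr13 above. Other probes of some of these genes moved less or not in the same direction: the highest log2 change among probes was 0.01 for Sort1, 0.08 for Nav1, -0.06 for Ypel3 and -0.10 for Dusp4. It was -0.41 for Arhgap24, -0.52 for Cerk, -0.56 for Dusp6 and -0.77 for Tlr13.

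Genes of the glutathione and thioredoxin systems, many of them targets of the oxidative stress factor NRF2, were lower in 14 of 26 cases and higher in 1 (median -0.32; the higher one, Txn1, was not called without opsonised replicate 2, and 3 were higher with probes averaged). Besides Gsta3 and Idh1, Slc7a11, the cystine importer, fell from 2137 and 2199.9 to 971 and 884 (-1.23 ± 0.12) and Gstm1 from 2245 and 2605 to 926 and 1025 (-1.31 ± 0.12, with a second probe at 0.12). Nfe2l2, which encodes NRF2, fell by 0.67 on the log2 scale, while Nqo1 at -0.28 and Txnrd1 at -0.06 did not pass the test. The heme oxygenase gene Hmox1, another NRF2 target, read 26039 and 24684 against 23327 and 22924 (-0.13 ± 0.10, adjusted p = 0.328). Slc40a1, the iron exporter ferroportin, read 26321 and 26467 against 23590.2 and 23754 (-0.16 ± 0.09, adjusted p = 0.206). Neither change passed the test, and both genes were among the brightest on these arrays. Of 15 heme and iron genes 4 were lower (26.7%) and 2 higher (13.3%), against 17.1% and 11.8% of all features. Fewer were higher without opsonised replicate 2 or without combined replicate 1, and 2 passed the filter only through arrays without IFNγ. Spic, the transcription factor of red pulp macrophages, fell from 983 and 1006 to 559 and 469 (-0.96 ± 0.12) and Tfrc, the transferrin receptor, from 447 and 375 to 286 and 299 (-0.49 ± 0.12).

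Sterol synthesis genes were lower in 11 of 20 cases and higher in 2 (median -0.37; 1 higher without combined replicate 1, and 1 passed the filter only through arrays with IFNγ). Sqle, squalene epoxidase, fell from 3807 and 4512 to 2064 and 2086 (-0.998 ± 0.11), Hmgcs1, which makes the precursor of mevalonate, from 14114 and 13331 to 6929.9 and 7339.6 (-0.94 ± 0.09) and Hsd17b7 by 0.90 ± 0.12. The exceptions were Ebp (0.74 ± 0.11) and Pmvk (0.49 ± 0.13), and Srebf2, the transcription factor of the pathway, at -0.30 did not pass the test. Ch25h, which makes the oxysterol 25-hydroxycholesterol, rose from 376 and 412 to 2418 and 2743 (2.71 ± 0.12, 6.54-fold). In its list of LXR and lipid genes 3 of 13 were higher (23.1%) and 5 lower (38.5%), against 11.8% and 17.1% of all features. The lower count was 3 without opsonised replicate 2. Abcg1 was among the higher genes (0.85 ± 0.12). Plin2, a lipid droplet coat gene (-0.94 ± 0.15), and Pparg (-0.82 ± 0.13) were among the lower ones.

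Most tested replication and mitosis genes were lower, and none was called higher. Mitosis and cytokinesis genes were lower in 18 of 22 cases, with a median of -0.79, the lowest of the lists. Prc1, a cytokinesis microtubule bundler, fell from 4906 and 4494 to 1719.8 and 1985 (-1.35 ± 0.11), Anln from 1642 and 1434 to 573 and 602 (-1.39 ± 0.11) and Plk1, a mitotic kinase, from 1343 and 1747 to 687 and 683 (-1.16 ± 0.12). DNA replication genes were lower in 21 of 31 cases (median -0.48). The mismatch repair gene Msh6 fell from 614 and 568 to 315 and 263 (-1.04 ± 0.12), Rrm1, a ribonucleotide reductase subunit, from 1425 and 1129.5 to 518 and 772 (-1.01 ± 0.15) and Mcm5, part of the replicative helicase, from 2437 and 2529 to 1179 and 1329 (-0.99 ± 0.12). Pcna at 0.25 and Foxm1 at -0.19 did not pass the test. 2 histone genes chosen after their values were seen fell alongside: H2ac12 from 8166 and 7339.6 to 3140.0 and 3578 (-1.21 ± 0.10) and H2ac15 from 9121 and 8095 to 3585 and 3840.5 (-1.21 ± 0.10), though such gene copies share sequence. Genes that act before S phase moved both ways. Of 21, 6 were higher (28.6%) and 7 lower (33.3%), against 11.8% and 17.1% of all features. In this list 3 genes passed the filter only through arrays without IFNγ. At least 2-fold changes were 1 higher and 2 lower, and log2 changes ran from -1.71 to 1.00. Cdkn1a, the p21 inhibitor, rose by 1.00 ± 0.10 and Ccnd1, cyclin D1, by 0.83 ± 0.12. Among the falls were Cdkn1c (-0.95 ± 0.13) and Cdkn2c, the p18 inhibitor (-0.76 ± 0.11).

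Of 22 glycolysis and HIF1 genes 5 were higher (22.7%) and 2 lower (9.09%), against 11.8% and 17.1% of all features. The lower count was 1 without opsonised replicate 1 or without combined replicate 1. The rises were led by Slc2a6, a lysosomal hexose transporter (3541 and 2812 against 9988 and 10524, 1.70 ± 0.12). Pfkp, platelet phosphofructokinase (1.41 ± 0.13), and Hk3, a hexokinase (1.23 ± 0.10), came next. Slc2a1, the main glucose uptake transporter gene, at 0.14, Gapdh at 0.05 and Ldha at -0.07 did not pass the test. In the citrate cycle and fatty acid oxidation list 3 were higher and 4 lower of 25 (median -0.01), shares near those of all features. Among 24 respiratory chain subunits 2 were higher and 2 lower (median -0.04), shares below those of all features; the higher count was 1 without either opsonised-only array or combined replicate 2, and the lower count 0 without combined replicate 1 or under either other scaling and 1 without combined replicate 2. Of the respiratory chain subunits 1 passed the filter only through arrays with IFNγ. Ribosomal protein genes gave 0 higher and 4 lower of 20, so 20% were lower, against 17.1% of all features. Under either other scaling or with probes averaged 1 was lower, and in a fit of only the 4 arrays or without the variance trend 2. Fewer were lower without opsonised replicate 2 or without either combined array, and the count of higher ones changed without opsonised replicate 1.

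Of 17 surface and growth factor receptor genes of macrophages 4 were higher (23.5%) and 4 lower (23.5%). Over all features, with which the shares in this paragraph compare, 11.8% were higher and 17.1% lower. Cx3cr1, the fractalkine receptor, fell from 615 and 547 to 246 and 202 (-1.38 ± 0.13), Cxcr4 from 625 and 580.4 to 242 and 279 (-1.21 ± 0.13) and Cd14, the lipopolysaccharide co-receptor, from 7879 and 7746 to 4197 and 4512 (-0.84 ± 0.10). Csf2rb, the shared GM-CSF receptor chain, rose by 0.82 ± 0.12 (3 probes from 0.06 to 0.82), and Adgre1 at 0.26 and Itgam at -0.11 did not pass the test. Among genes for the uptake of dying cells and scavenging, Axl read 1719 and 2031 against 6417 and 5120.2 (1.62 ± 0.13) and Mertk 842 and 936 against 2092 and 1870.3 (1.16 ± 0.11), while Gas6, which encodes a ligand of both, fell from 7316 and 8876 to 4233 and 4375 (-0.90 ± 0.10). The scavenger receptor gene Stab1 fell by 0.66 ± 0.11 and the lipid receptor gene Trem2 by 0.45 ± 0.11 (-0.25 without combined replicate 1). Havcr2, which encodes the phosphatidylserine receptor TIM-3, fell by 0.46 ± 0.12 (-0.32 without opsonised replicate 1 and -0.42 without combined replicate 1). In the list of scavenger, dying-cell uptake and alternative activation genes, which holds all of these but Havcr2, 5 were higher (29.4%) and 4 lower (23.5%) of 17. The median was 0.003, and 3 were higher without combined replicate 2. In that list Mrc1 at -0.20 and Chil3 at 0.00 did not pass the test. Apoptosis regulators were higher in 7 of 19 cases (36.8%), with the death receptor gene Fas at 1.35 ± 0.11 and Daxx at 1.41 ± 0.14. They were lower in 2 (10.5%), Bcl2l11 and Bcl2 (1 without opsonised replicate 2 or with probes averaged). Of 18 immediate early and MAP kinase feedback genes 5 were higher (27.8%) and 4 lower (22.2%). Of the 18, 2 passed the filter only through arrays with IFNγ and 1 only through arrays without it. The lists of surface and growth factor receptors, apoptosis regulators and complement genes each held 1 of each kind. Members that passed only through arrays without IFNγ numbered 2 for metalloproteinase and adhesion genes and 1 for heat shock genes. Zfp36, which destabilises cytokine mRNA, rose from 1695 and 1876 to 6129 and 6806 (1.86 ± 0.11), and Dusp1 fell by 0.92 ± 0.12. Among metalloproteinase and adhesion genes 4 were higher (28.6%) and 1 lower (7.14%) of 14 (2 lower without opsonised replicate 1). The collagenase gene Mmp13 read 1661 and 1732 against 5153 and 4552 (1.51 ± 0.12, 3 probes from 0.15 to 1.51). The mast cell and basophil marker Hdc, histidine decarboxylase, rose from 204 and 199 to 536 and 474 (1.32 ± 0.11), while Fcer1a, Mcpt4 and Tpsb2 were not above background in either group, and the summed intensity of that marker list was 1792 to 1806 with opsonised cells and 2057 to 2152 with IFNγ as well. Of 4 tested complement genes 2 were higher and 2 lower, and leaving out any 1 of the 4 arrays brought at least 1 of these counts to 1, as did either other scaling for the lower count. Of 11 heat shock genes 2 were higher (18.2%) and 1 lower (9.09%), against 11.8% and 17.1% of all features. Fewer were higher without either opsonised-only array or without combined replicate 2, and fewer lower without opsonised replicate 1. In a fit of only the 4 arrays or without the filter 1 was higher. With probes averaged or without the variance trend 2 were lower.

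Nearly all of the large changes had the same sign when the same dose of IFNγ was given without the particle. IFNγ alone against unstimulated cells changed 2050 features (22.8%), 888 higher (9.89%) and 1162 lower (12.9%), and the lower count was 773 and 740 without unstimulated replicates 1 and 2 and 720 and 650 without IFNγ replicates 1 and 2. Features higher in both numbered 644, which is 60.6% of the higher calls with opsonised cells and 72.5% of those without. Those lower in both numbered 749, 48.8% and 64.5% of the respective lower calls. Across the 8977 features, which share the same arrays and are not independent, the 2 log2 changes correlated with Pearson's r of 0.849 and Spearman's rho of 0.647. Of the 351 features changed at least 2-fold with opsonised cells, 348 had the same sign without them. The comparisons share no array. The difference between the 2 effects was tested itself, as the change with opsonised cells minus the change without, and passed for 231 features (2.57%), 106 positive (1.18%) and 125 negative (1.39%). At a size of at least 2-fold there were 19 positive (0.212%) and 18 negative ones (0.201%). Positive differences numbered 61 and 47 without unstimulated replicates 1 and 2, 47 without IFNγ replicate 1 and 69 without opsonised replicate 2. Negative ones numbered 76 and 56 without unstimulated replicates 1 and 2 and 59 and 54 without IFNγ replicates 1 and 2.

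**Figure D3:**
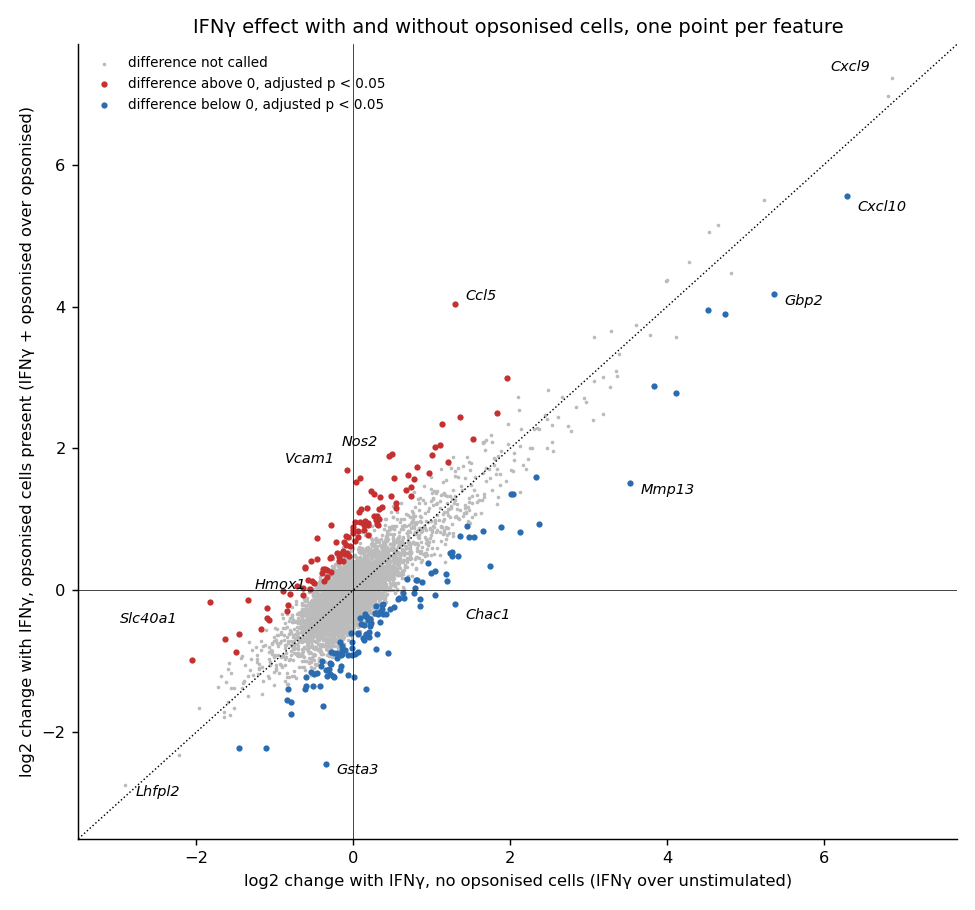
Log2 change with IFNγ in cells given opsonised red cells (y axis) against that in cells without them (x axis); each point is 1 of 8977 features, coloured where the difference passed the test above or below 0. Ccl5 lies above the diagonal (4.04 with and 1.30 without) and Gsta3 below it (-2.44 with and -0.35 without).

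The difference was positive, a change with opsonised cells above that without, for Ccl5, which read 299 and 262 in unstimulated cells, 669.6 and 709 with IFNγ alone, 267 and 353 with opsonised cells alone and 4785 and 5321 with both (difference 2.74 ± 0.19, adjusted p = 3.9e-09). Both arrays with both stimuli stood far above the other 6 for Ccl5. Nos2 read 192 and 158, 229.6 and 249.7, 183 and 186 and 631 and 738 in the same order (1.43 ± 0.17, adjusted p = 1.2e-05). Vcam1 read 201 and 221, 184 and 216, 178 and 203 and 586 and 651 (1.78 ± 0.17), and Ubd, a ubiquitin-like modifier, 202 and 200.3, 219 and 210.5, 214 and 199 and 565 and 681 (1.49 ± 0.16). These genes were near background in the other 3 groups and above it with both stimuli. Oasl1 (1.43 ± 0.18), Klhl6 (1.48 ± 0.16), Cst7, a cathepsin inhibitor (1.22 ± 0.18), and Cd74 (1.03 ± 0.17) differed in the same direction, as did Traf1, a TNF receptor adaptor chosen after its values were seen (1.09 ± 0.17). For another set the positive difference came with a fall in the cells without the particle. Hmox1 read 2342 and 2451 in unstimulated cells and 919 and 969 with IFNγ alone (-1.34 ± 0.10), against 26039 and 24684 and 23327 and 22924 in cells given opsonised cells (-0.13 ± 0.10); the difference was 1.21 ± 0.14 (adjusted p = 6.5e-06). Slc40a1 fell from 9215 and 9689 to 2602 and 2757 without the particle (-1.82 ± 0.09) and read 26321 and 26467 against 23590.2 and 23754 with it, a difference of 1.66 ± 0.13. Ednrb, the endothelin B receptor, was -0.46 without and 0.74 with opsonised cells (1.20 ± 0.17). The particle alone had brought Hmox1 and Slc40a1 toward the top of the intensity range, and the part of that in the difference was not tested.

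**Figure D4:**
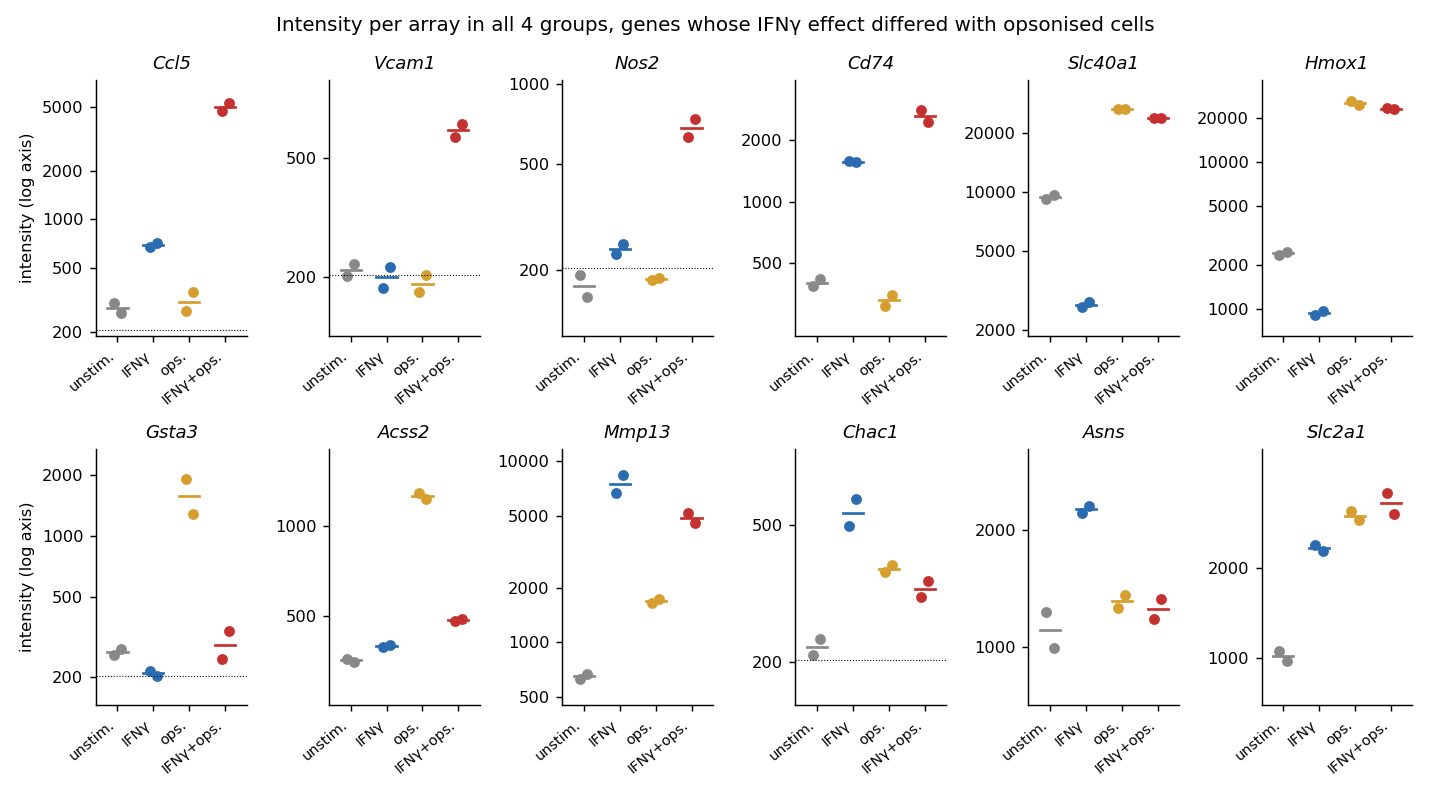
Deposited intensity (log axis) on each of the 8 arrays for genes whose change with IFNγ differed between cells with and without opsonised red cells; each point is 1 array, short lines are group means, the dotted line is the background floor and each panel has its own range. Ccl5 reads 4785 and 5321 with both stimuli and at most 709 in the other groups, while Slc40a1 reads 2602 and 2757 with IFNγ alone and 23590.2 and 23754 with both.

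Negative differences covered genes that rose less, or fell, when opsonised cells were present. Gsta3 read 258 and 277 in unstimulated cells, 216 and 204 with IFNγ alone, 1920.4 and 1279 with opsonised cells alone and 247 and 338 with both (difference -2.09 ± 0.23, adjusted p = 4.4e-06). Acss2 (-1.55 ± 0.16) and Dnmt3l (-1.26 ± 0.16) had the same shape: 359.6 and 352, 394 and 401, 1296 and 1235 and 482 and 487 for Acss2, and 265 and 272, 215 and 198, 2894 and 2716 and 899 and 909 for Dnmt3l. In these 3 genes the opsonised-only arrays stood above the other groups, and both arrays with both stimuli lay well below them, on either side of the unstimulated arrays for Gsta3 and above those arrays for Acss2 and Dnmt3l. Cdca7, a Myc-responsive chromatin gene, differed by -1.23 ± 0.18 and Sla by -1.11 ± 0.16, although Sla missed the threshold when probes were averaged. Among the 10 largest negative differences were 3 interferon-inducible genes that rose by less with the particle: the difference was -1.33 ± 0.17 for Ifit2, -1.30 ± 0.18 for Ifit3 and -1.18 ± 0.14 for Gbp2, which missed the threshold when probes were averaged. By the same test it was also negative for Cd274 (-0.96 ± 0.14), Igtp (-0.84 ± 0.15), Cxcl10 (-0.73 ± 0.16) and Gbp3 (-0.58 ± 0.15). In all of these interferon-inducible genes the opsonised-only mean lay above the unstimulated one. Means with both stimuli were below those with IFNγ alone for Ifit2 (6560 against 7908), Ifit3 (3218 against 4481) and Igtp (10110 against 12652). They were above them for Gbp2 (28990 against 27396), Cd274 (19464 against 18620), Cxcl10 (21268 against 16409) and Gbp3 (9568 against 9015). The part of the starting level or of the intensity range in these differences was not tested. Mmp13 rose from 632 and 669 to 6707 and 8329.9 with IFNγ alone and from 1661 and 1732 to 5153 and 4552 with the particle present (difference -2.01 ± 0.16). Endoplasmic reticulum and amino acid stress genes were higher in 10 of 23 cases with IFNγ alone, against 9.89% of all features. With IFNγ added to opsonised cells 2 were higher (8.7%) and 2 lower (8.7%), below the 11.8% and 17.1% of all features. The difference was negative and called in 8 and positive in 0, against 1.39% and 1.18% of all features. Among the 23 genes 1 passed the filter only through arrays with IFNγ. Chac1, a glutathione-degrading enzyme induced by ATF4, read 210.1 and 233 in unstimulated cells, 498 and 594 with IFNγ alone, 366 and 382 with opsonised cells and 309 and 343 with both (-1.50 ± 0.17), and Slc7a5, a leucine transporter, differed by -1.32 ± 0.19. Related genes chosen after their values were seen were the asparagine synthetase gene Asns (-1.11 ± 0.17), Mthfd2, a mitochondrial folate enzyme (-1.08 ± 0.18), Atf4 itself (-0.82 ± 0.17) and the glucose transporter gene Slc2a1 (-1.06 ± 0.16). For Atf4 the difference was not called without unstimulated replicate 2 or without opsonised replicate 2. Cell cycle lists had more lower members with opsonised cells than without. These were 18 against 13 of 22 for mitosis and 21 against 9 of 31 for replication. Of all features 17.1% were lower with opsonised cells and 12.9% without. The difference itself was called negative in 5 mitosis and 2 replication genes, against 1.39% of all features.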

How the data were processed

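Illumina MouseRef-8 BeadChips read RNA of bone marrow macrophages on 8 arrays, 2 in each of 4 groups taken from the sample titles. The values are the deposited intensity values, which the authors made with GenomeStudio, per the submitters' processing notes, on a linear scale; the sources used here give neither its version nor the normalization. Sorted, the arrays differed by at most 0.961% at any rank, a pattern that quantile normalization gives. The lowest intensity was 119.8, so background had not been subtracted. A further table was not used, because its 16 per-sample columns have names that match no label.

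Probes above a floor of 203.5 (the mode of all log2 values plus 1.64 SD of the values below it) on both arrays of at least 1 group were kept, 11816 probes (46%). Detection p-values could not be assigned to samples. The annotation gave 1 symbol for 23978 probes and none for 1719. A gene was read by its brightest probe. limma 3.58.1 in R 4.3.3 (lmFit, eBayes with trend) fitted log2 intensities of all 8 arrays with 4 group means (4 residual degrees of freedom, 22.8 after moderation), with Benjamini-Hochberg adjustment within each contrast and a threshold of 0.05. A group was not above background when neither array passed the floor, and the change is then "at least N-fold", computed from the bright group's mean and, for the dim group, its own signal or the floor, whichever is higher. The fit was tested on simulated data with known changes.

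Named genes are the 20 largest rises and the 20 largest falls among called genes with separated groups, up to 4 called members per list and direction, the receptor genes of both stimuli with 6 fixed effector genes, and the 10 largest differences in each direction. List members that did not pass the test, other list members and those said to be chosen after their values were seen are additions. The comparison, the lists and the promoter motifs were chosen with earlier results of these data known. Promoter sequences are from RefSeq, GRCm38.p6; of genes with several starts (1402) the first was used. Alternatives covered scaling, probe filters, background subtraction, probe averaging, the variance trend, a fit of only the 4 arrays, a replicate block and leaving out each array. Same-numbered arrays did not deviate together (correlations of deviations from the group means between -0.0419 and 0.0444), so no pairing was used.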

Additional observations from a re-analysis of the deposited data

Results flagged for a closer look

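The change made by IFNγ differed between cells with and without opsonised red cells, by limma's test of that difference at an adjusted p under 0.05 and a size of at least 1 on the log2 scale, in 26 of the named genes. Values are the log2 change with opsonised cells minus that without, from 2 arrays in each of the 4 groups. Positive differences were those of Ccl5 (2.74), Vcam1 (1.78), Slc40a1 (1.66), Ubd (1.49), Klhl6 (1.48), Oasl1 (1.43), Nos2 (1.43), Cst7 (1.22), Hmox1 (1.21), Ednrb (1.20), Traf1 (1.09) and Cd74 (1.03). Negative differences were those of Gsta3 (-2.09), Mmp13 (-2.01), Acss2 (-1.55), Chac1 (-1.50), Ifit2 (-1.33), Slc7a5 (-1.32), Ifit3 (-1.30), Dnmt3l (-1.26), Cdca7 (-1.23), Gbp2 (-1.18), Sla (-1.11), Asns (-1.11), Mthfd2 (-1.08) and Slc2a1 (-1.06). The genes Traf1, Asns, Mthfd2 and Slc2a1 were added after their values were seen. For Gbp2 and Sla the difference missed the threshold when the probes of a gene were averaged.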

How the results depend on the processing

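The counts with IFNγ added to opsonised cells stayed within 1.5 times their main values under every alternative run: leaving out 1 array gave 894 to 950 higher and 1146 to 1216 lower features, fitting only the 4 arrays compared gave 969 and 1343, and testing all probes without a floor gave 958 and 1306. With the replicate number as a block, although the pairing check found no pairing, the counts were 1055 higher and 1509 lower with opsonised cells, 879 higher and 1133 lower without them, and 107 positive and 119 negative differences. Leaving out 1 array moved the lower count of IFNγ alone to 650 to 773, positive differences to 47 to 110 and negative ones to 54 to 135; a contrast with 1 array in an arm assumes that it varies like the others, and beyond that the cause was not tested. The share of raised genes with a GAS or ISRE core fell from 27.5% to 17% when all raised genes were counted, a set that holds smaller changes. Of 224 named genes, 179 kept direction and side of the threshold under every alternative. Log2 changes that turned sign were all below the threshold: Fcgr2b 0.00153 and Ifngr2 0.0404 with probes averaged, Asns 0.0177 and Atf4 0.0416 after cyclic loess, and Atf4 0.0236 after housekeeping centring. Leaving out 1 array gave -0.2307 to 0.01608 for Ifngr2 (positive without combined replicate 1), -0.1547 to 0.01726 for Asns (positive without the same array) and -0.2212 to 0.1344 for Atf4 (positive without opsonised replicate 2); the cause was not tested. Signal over background limits the dim genes: the deposited intensities still hold the background, so folds of genes near the floor are understated.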
